A study of Mus musculus with 2 samples.

Results

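TGF-β ligands, their receptors and 2 genes downstream of them were measured in skin epithelium of mouse embryos at embryonic day 17 (E17), in 1 control and 1 *Mettl3* conditional knockout (cKO) library. The 7 genes were chosen by symbol, namely the ligands *Tgfb1*, *Tgfb2* and *Tgfb3*, the receptors *Tgfbr1* and *Tgfbr2*, the signal transducer *Smad3* and the matrix gene *Tgfbi*, out of 27998 genes listed in the deposited matrices, and all were found there. The control carried Mettl3 fl/+, Rosa16-YFP fl/+ and K14Cre (Ctrl), and the knockout carried Mettl3 fl/fl with the same YFP and Cre alleles (cKO), both on the C57BL/6 strain. Cre is driven by the *Krt14* promoter, so recombination and the YFP mark were limited to the Krt14 lineage of the epithelium, and the control cells also carried Cre and 1 floxed *Mettl3* allele. Back skin was digested with collagenase and then trypsin, and live YFP+ cells negative for the study's lineage markers (CD31, CD45, CD117 and CD140a) were sorted on integrins α6 and β1, and this gate bears on how many cells of each kind were captured. RNA was captured at its 3′ end in droplets and counted as unique molecular identifiers (UMIs), and the number of embryos behind a library was not given in the sources used here. With 1 library per condition no test between conditions was possible. Every range in parentheses below is a 95% interval for counting error only, exact Poisson for a level, exact conditional binomial for a ratio and exact binomial (Clopper-Pearson) for a share, and none covers the spread between embryos.

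TGF-β1, TGF-β2 and TGF-β3 are secreted as latent dimers held by a propeptide and by latent TGF-β binding proteins, and integrins or proteases release them. The free ligand brings together the type II receptor TGFBR2 and the type I receptor TGFBR1, which phosphorylates SMAD2 and SMAD3, and these enter the nucleus with SMAD4. In keratinocytes the pathway is known for slowing division and for inducing matrix genes, *Tgfbi* among them, and in developing hair follicles TGF-β2 is known to act in the downgrowth of the hair bud. METTL3 is the catalytic subunit of the complex that writes N6-methyladenosine (m6A) on mRNA.

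In all, 4447 control and 3577 cKO barcodes had at least 1800 genes, with median depths of 8941 and 8581 UMIs, out of 59664869 and 49755010 UMIs in the matrices. *Mettl3* stood at 12.7 CPM (11.7 to 13.8) in the control and 6.18 CPM (5.38 to 7.08) in the cKO library, where CPM are UMIs per 1e6 UMIs of the summed cells, although its 3′ tags lie outside the floxed exon. The libraries differed in sex: *Xist* was found in 99.8% of control cells and in 0.028% of cKO cells, and genes of the Y chromosome in 0.112% and 64.3%. Genotype, sex, embryo and library therefore cannot be told apart in any comparison of cKO with control below. Both libraries shared 16 cell barcodes.

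Cells were assigned by the UMIs of marker genes per 10000 UMIs of the cell, none of them among the 7 genes described. The basal gate (*Krt5*, *Krt14*, *Krt15*) held 2530 control and 1543 cKO cells, and the suprabasal gate (*Krt1*, *Krt10*) held 420 and 308. Hair follicle cells were taken by 2 gates: 222 control and 278 cKO cells with *Shh*, *Dkk4* or *Fgf20* (the Shh/Dkk4 follicle gate) and 699 and 706 cells with *Sox9*, *Lhx2* or *Krt79* and not the first set (the Sox9 follicle gate). Markers that had not set a gate followed it: *Col17a1*, a hemidesmosome gene, was highest in the basal gate at 209 and 206 CPM, *Ly6d* stood at 4531 and 3495 CPM in the suprabasal against 54.5 and 93.6 CPM in the basal gate, *Edar* led in the Shh/Dkk4 follicle gate at 105 and 79.98 CPM, and *Pthlh* in the Sox9 follicle gate at 556 and 566 CPM. Loricrin (*Lor*), a late differentiation gene, went against this in the cKO library, at 8.91 CPM in the suprabasal and 17.2 CPM in the basal gate, against 15.6 and 9.29 CPM in the control. The keratins behind the basal gate were lower in the cKO library, with a median of 205 UMIs per 10000 in control and 147 in cKO basal cells, and 617 control and 711 cKO cells lay within 1.5-fold above its threshold. No gate was passed by 10.8% of kept control and 18.5% of kept cKO cells, 19 and 14 passed both the suprabasal and a follicle gate and were left out, and 78 control and 65 cKO cells were left out for markers of Merkel cells, neural crest, mesenchyme, endothelium or immune cells. Within the gates the 5 immune markers summed to at most 0.78 CPM. The 6 mesenchyme markers summed to 39.7 CPM in control and 33 CPM in cKO Sox9 follicle cells, of which *Col1a2* gave 216 and 151 UMIs and *Pdgfra*, which encodes the sorted-out CD140a, 1 and 2, against 6.31 and 5.66 CPM in basal cells. The 6 Merkel cell markers summed to 26.4 and 21.9 CPM in Shh/Dkk4 follicle cells, nearly all *Krt8* and *Krt18*. The cells left out for markers of other cell types held 141 and 112 CPM of *Tgfb2* in the control and cKO library. They held 42.1 and 21.1 CPM of *Tgfb3* and 31.5 and 23.2 CPM of *Tgfb1* in the same order. The part of such cells in the ligand levels below was not tested.

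*Tgfb2* had the highest ratio of follicle to basal level of the 7 genes in both libraries and both follicle gates. The gene lies at chr1:186622792-186705989, minus strand of GRCm38. Its level was 246 CPM (235 to 259) for control and 236 CPM (224 to 248) in cKO Sox9 follicle cells, and 109.8 CPM (96.2 to 125) and 92.5 CPM (81.1 to 105) in Shh/Dkk4 follicle cells. In the basal gate it was 3.89 CPM (3.15 to 4.75) in the control and 4.31 CPM (3.32 to 5.51) in the cKO library, and in the suprabasal gate 1.58 CPM (0.682 to 3.11) and 4.18 CPM (2.34 to 6.89), from 8 and 15 UMIs. Both follicle gates were high and both epidermal gates low in each library. Sox9 follicle cells thus held 63.4 (51.5 to 78.8) times the basal level in the control and 54.7 (42.6 to 71.4) times in the cKO library, and 2.25 (1.96 to 2.59) and 2.55 (2.22 to 2.94) times the level of Shh/Dkk4 follicle cells. The order from Sox9 follicle to Shh/Dkk4 follicle to basal cells was the same in both libraries and each step exceeded counting error, whereas the step from basal to suprabasal cells exceeded it in the control, at 2.46 (1.20 to 5.87), and not in the cKO library, at 1.03 (0.582 to 1.95). That step turned round in the control with stricter gates, where the suprabasal level was 1.38 times the basal level. Barcodes without a cell (10 to 100 UMIs) held 12.1 and 16.4 CPM of *Tgfb2*, more than basal cells did, and with other settings the Sox9 follicle to basal ratio ran from 45.8 to 172 in the control and from 25.2 to 160.5 in the cKO library. *Tgfb2* was one of the genes the study itself used to name cell types, and it set none of the gates here. The study also described its follicle cells with low WNT signalling as positive for *Tgfbr2*, which set no gate here either.

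The promoters of *Tgfb2*, *Tgfb1* and *Tgfbr2* are shown because the first gene had the highest follicle to basal ratio, the second was higher there by a smaller factor and the third was highest in basal cells. RefSeq sequences (GRCm38.p6, 250 bases before to 50 after the annotated start, 5′ to 3′ on the gene's strand) were held for 6 of the 7 genes, *Tgfb3* being the one without an entry. Capitals mark any match, on either strand, to TATAAA (a core promoter box), CACGTG (an E-box, the same on both strands), ACAAAG (a SOX and TCF core) or CAGACA (a SMAD element). These lie at chr1:186705940-186706239 (minus strand) for *Tgfb2*, chr7:25686752-25687051 (plus strand) for *Tgfb1* and chr9:116175314-116175613 (minus strand) for *Tgfbr2*.
Tgfb2: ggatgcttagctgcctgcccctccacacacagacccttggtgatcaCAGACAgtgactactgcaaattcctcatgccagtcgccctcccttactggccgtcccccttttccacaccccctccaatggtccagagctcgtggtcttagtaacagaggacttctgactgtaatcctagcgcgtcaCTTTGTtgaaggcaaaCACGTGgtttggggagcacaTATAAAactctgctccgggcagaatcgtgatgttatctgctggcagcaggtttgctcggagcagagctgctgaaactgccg
Tgfb1: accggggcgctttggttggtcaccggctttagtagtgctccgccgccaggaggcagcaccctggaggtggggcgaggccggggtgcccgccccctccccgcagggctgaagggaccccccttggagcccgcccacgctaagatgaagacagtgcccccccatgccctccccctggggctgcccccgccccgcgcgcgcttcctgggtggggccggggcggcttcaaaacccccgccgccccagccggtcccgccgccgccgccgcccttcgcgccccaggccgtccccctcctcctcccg
Tgfbr2: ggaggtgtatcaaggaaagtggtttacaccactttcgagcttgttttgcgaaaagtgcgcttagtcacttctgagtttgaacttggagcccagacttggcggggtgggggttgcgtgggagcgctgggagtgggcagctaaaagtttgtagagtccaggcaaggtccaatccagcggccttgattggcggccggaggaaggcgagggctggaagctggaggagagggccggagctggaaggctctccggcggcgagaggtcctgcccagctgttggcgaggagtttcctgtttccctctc
The *Tgfb2* promoter held 1 match to each of the 4 motifs, with the core promoter box 31 bases before the start, the E-box 51, the SOX and TCF core 67 and the SMAD element 204 bases before it, counted to the first base of the match and without overlap between them. No match stood in the windows of *Tgfb1*, *Tgfbr2* or *Smad3*. Of the windows not shown, 1 of *Tgfbr1* held ACAAAG 29 bases before the start. Its other window held ACAAAG 22 and CAGACA 203 bases before it. The window of *Tgfbi* held ACAAAG 156 bases before the start. Among 32851 mouse promoters of the same length, 13.6% held TATAAA, 7.15% CACGTG, 18.7% ACAAAG and 21.04% CAGACA. GC content was 54.3% for *Tgfb2*, 59% for *Tgfbr2* and 77% for *Tgfb1*, with a median of 52.7% over all promoters. A match is a stretch of letters and no evidence of binding.

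*Tgfb1* and *Tgfb3* were also higher in follicle cells, each with its own order of gates. *Tgfb1* (chr7:25687002-25705077, plus strand) stood at 53.2 CPM (43.9 to 64.02) for control and 53.5 CPM (44.9 to 63.2) in cKO Shh/Dkk4 follicle cells and at 48.04 CPM (42.8 to 53.7) and 42.7 CPM (37.8 to 48.1) in Sox9 follicle cells. Basal cells held 23.8 CPM (21.9 to 25.8) in the control and 18.3 CPM (16.2 to 20.6) in the cKO library, and suprabasal cells 7.11 CPM (4.98 to 9.84) and 3.62 CPM (1.93 to 6.19). The suprabasal level was 0.299 (0.207 to 0.419) of the basal level in control cells and 0.198 (0.104 to 0.344) of it in cKO cells. Barcodes without a cell held 18.5 and 17.4 CPM. The 2 follicle gates did not differ beyond counting error in the control, at a ratio of 1.11 (0.886 to 1.38), and the Shh/Dkk4 gate was 1.25 (1.01 to 1.54) times the Sox9 gate in the cKO library. *Tgfb3* (chr12:86056745-86079041, minus strand) was highest in Sox9 follicle cells, at 92.5 CPM (85.2 to 100.2) in the control and 69.6 CPM (63.3 to 76.4) in the cKO library. Its level in Shh/Dkk4 follicle cells was 8.01 CPM (4.67 to 12.8) and 7.80 CPM (4.77 to 12.1), in basal cells 2.29 CPM (1.73 to 2.98) and 3.64 CPM (2.73 to 4.75), and in suprabasal cells 0.988 CPM (0.321 to 2.31) and 0.836 CPM (0.172 to 2.44), the last from 5 and 3 UMIs. The step from Shh/Dkk4 to Sox9 follicle cells was 11.6 (7.15 to 19.96) times for *Tgfb3* in the control and 8.92 (5.71 to 14.8) times in the cKO library, against ratios of 0.902 (0.725 to 1.13) and 0.8 (0.649 to 0.989) for *Tgfb1*.

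**Figure D1:**
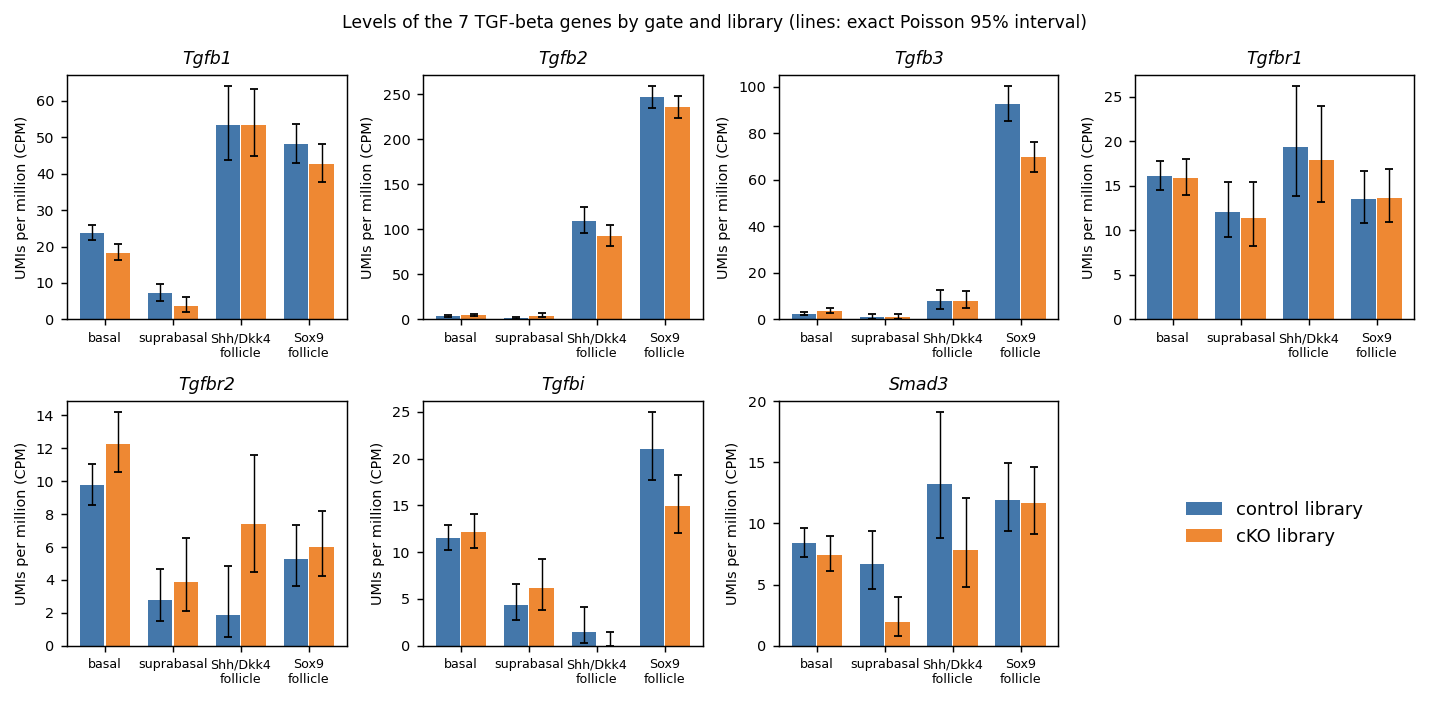
Levels of the 7 genes in each gate, in CPM of the summed cells, as bars for the control (blue) and cKO (orange) library, with exact Poisson 95% intervals as lines and a separate vertical axis for each gene. *Tgfb2* and *Tgfb3* are tall in the Sox9 follicle gate (246 and 92.5 CPM in the control) and near 0 in both epidermal gates, *Tgfbr1* is nearly level, and *Tgfbr2* is highest in the basal gate.

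Within the Sox9 follicle gate *Tgfb2* was higher in cells with *Krt79* alone than in cells with *Lhx2* alone, and *Tgfb1* and *Tgfb3* were lower. The gate was split, after the levels above had been seen, by at least 1 UMI of *Krt79*, a keratin of the upper follicle, and *Lhx2*, a transcription factor of early follicle stem cells. *Tgfb2* was 325 CPM (299.6 to 353) in the 223 control and 332 CPM (306 to 360) in the 233 cKO cells with *Krt79* alone, and 159 CPM (143 to 176) and 159 CPM (143 to 176) in the 229 and 224 cells with *Lhx2* alone. *Tgfb1* ran the other way, from 26.4 CPM (19.4 to 34.97) and 29.6 CPM (22.2 to 38.8) with *Krt79* alone to 68.9 CPM (58.6 to 80.4) and 65.8 CPM (55.6 to 77.3) with *Lhx2* alone. *Tgfb3* did likewise, from 50.5 CPM (40.8 to 61.99) and 54.2 CPM (43.99 to 66.2) to 113 CPM (99.7 to 127) and 96.7 CPM (84.2 to 110.5). The ratio of *Krt79*-only to *Lhx2*-only cells was thus 2.04 (1.79 to 2.33) for *Tgfb2* in the control and 2.09 (1.83 to 2.39) in the cKO library, 0.383 (0.271 to 0.532) and 0.451 (0.323 to 0.621) for *Tgfb1*, and 0.448 (0.349 to 0.57) and 0.561 (0.437 to 0.716) for *Tgfb3*. Depth differed between these cells, with medians of 7210 and 9343 UMIs in the control, and the part of depth in detecting either marker was not tested. Cells with both markers held the highest control level of *Tgfb3*, 131 CPM (115 to 149), and of *Tgfb2*, 349 CPM (322 to 378), against 75.01 CPM (61.9 to 90.04) and 296 CPM (269.5 to 325) in the cKO library. For *Tgfb2* the control interval overlaps that of *Krt79*-only cells. In the 72 control and 92 cKO cells with neither, which entered the gate on *Sox9*, *Tgfb2* was 40.7 CPM (25.8 to 61.1) and 122 CPM (99.5 to 149).

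**Figure D2:**
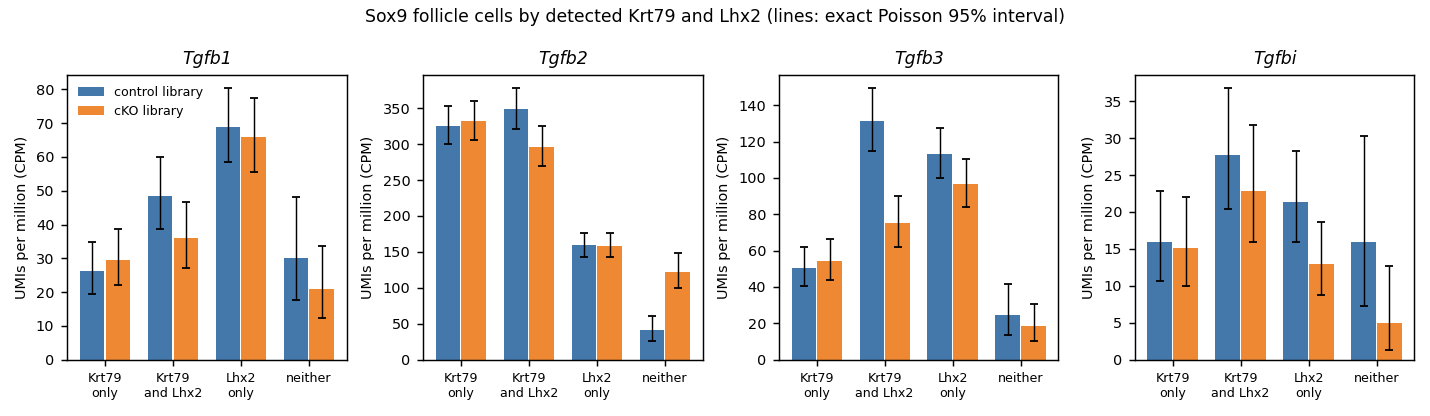
Levels (CPM) of *Tgfb1*, *Tgfb2*, *Tgfb3* and *Tgfbi* in Sox9 follicle cells split by detected *Krt79* and *Lhx2*, for the control (blue) and cKO (orange) library, with exact Poisson 95% intervals as lines. *Tgfb2* is higher with *Krt79* alone than with *Lhx2* alone in both libraries, and *Tgfb1* and *Tgfb3* are lower.

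*Tgfb2* was lower in cycling than in other Sox9 follicle cells. Sox9 follicle cells with a UMI of *Mki67* or *Top2a* held 185 CPM (172 to 199) in the control and 184 CPM (171 to 198) in the cKO library, and those without held 345 CPM (322 to 369) and 329 CPM (306 to 353). In Shh/Dkk4 follicle cells the ratio of cycling to other cells was 0.898 (0.682 to 1.19) in the control, which counting error covers, and 0.751 (0.57 to 0.996) in the cKO library. For *Tgfb3*, counting error covered the ratios of 0.876 (0.743 to 1.04) and 0.845 (0.696 to 1.03) in the Sox9 follicle gate, and *Tgfb1* was higher in cycling cells of the control, at 1.31 (1.03 to 1.68), and not beyond counting error in the cKO library, at 1.01 (0.787 to 1.31). Cycling Sox9 follicle cells were deeper, with medians of 10085 UMIs against 6886 in the control, and CPM divides by that depth.

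Neither receptor was higher in Sox9 follicle than in basal cells. *Tgfbr1* (chr4:47353222-47414931, plus strand), the type I receptor kinase, stood at 16.1 CPM (14.6 to 17.8) for control and 15.9 CPM (13.9 to 18.1) in cKO basal cells and at 19.3 CPM (13.9 to 26.2) and 17.9 CPM (13.1 to 23.9) in Shh/Dkk4 follicle cells. It was 13.5 CPM (10.8 to 16.6) and 13.7 CPM (10.9 to 16.9) in Sox9 follicle cells and 12.1 CPM (9.22 to 15.5) and 11.4 CPM (8.20 to 15.5) in suprabasal cells. No neighbouring pair of gates in this order differed beyond counting error in either library. In barcodes without a cell *Tgfbr1* stood at 14.4 and 11.5 CPM, within the range of the gates in each library. *Tgfbr2* (chr9:116084293-116175360, minus strand), the type II receptor that binds the ligand first, was highest in basal cells, at 9.74 CPM (8.55 to 11.1) in the control and 12.3 CPM (10.6 to 14.2) in the cKO library. Sox9 follicle cells held 5.27 CPM (3.65 to 7.36) and 5.97 CPM (4.23 to 8.20), suprabasal cells 2.77 CPM (1.51 to 4.64) and 3.90 CPM (2.13 to 6.54), and Shh/Dkk4 follicle cells 1.89 CPM (0.514 to 4.83) and 7.41 CPM (4.46 to 11.6), from 4 and 19 UMIs. The gates where the ligands were highest thus held 0.541 (0.366 to 0.777) and 0.487 (0.334 to 0.694) of the basal *Tgfbr2* level in the Sox9 follicle and 0.193 (0.0523 to 0.502) and 0.604 (0.356 to 0.971) in the Shh/Dkk4 follicle gate, in the control and cKO library in turn. Among the other gates below basal, no neighbouring pair differed beyond counting error in either library. In barcodes without a cell *Tgfbr2* stood at 5.45 and 5.63 CPM, near the Sox9 follicle and above the suprabasal level in each library. How much of the receptor levels was free RNA was not measured.

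*Smad3* was somewhat higher in Sox9 follicle than in basal cells, and *Tgfbi* was nearly absent from Shh/Dkk4 follicle cells. *Smad3* (chr9:63646767-63757994, minus strand), the receptor-activated transcription factor, was 13.2 CPM (8.77 to 19.1) for control and 7.80 CPM (4.77 to 12.1) in cKO Shh/Dkk4 follicle cells and 11.9 CPM (9.42 to 14.9) and 11.6 CPM (9.13 to 14.6) in Sox9 follicle cells. Basal cells held 8.39 CPM (7.28 to 9.62) and 7.41 CPM (6.09 to 8.94), and suprabasal cells 6.71 CPM (4.65 to 9.38) and 1.95 CPM (0.784 to 4.02). Sox9 follicle cells exceeded basal cells by more than counting error in both libraries, at ratios of 1.42 (1.08 to 1.86) and 1.57 (1.15 to 2.12), and the follicle gates did not differ from one another beyond it in either. Suprabasal cells were below basal cells beyond counting error in the cKO library and not in the control. In barcodes without a cell *Smad3* stood at 5.83 CPM in the control and 9.12 CPM in the cKO library, the latter above cKO basal cells. *Tgfbi* (chr13:56609523-56639562, plus strand), which encodes a secreted matrix protein that binds integrins, was 21.1 CPM (17.7 to 24.9) for control and 14.9 CPM (12.1 to 18.2) in cKO Sox9 follicle cells, 11.5 CPM (10.2 to 12.9) and 12.1 CPM (10.4 to 14.04) in basal cells and 4.34 CPM (2.72 to 6.58) and 6.13 CPM (3.84 to 9.28) in suprabasal cells. Shh/Dkk4 follicle cells were almost without it, with 3 UMIs in control cells and 0 in cKO cells. The interval for the 0 reaches 1.44 CPM, and the floor of 3 counts is 1.17 CPM there. Against that floor the ratio of Sox9 to Shh/Dkk4 follicle cells was 12.8 in the cKO library, which is not a lower bound. It ran from 3.92 to 14.8 with other settings. In the control the ratio was 14.9 (4.99 to 73.2). Sox9 follicle cells exceeded basal cells in the control, at 1.83 (1.48 to 2.26), and not beyond counting error in the cKO library, at 1.23 (0.95 to 1.59).

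Counted by a 2-fold difference in the same direction in both libraries, the ligands made up most of the calls between follicle and basal cells. Sox9 follicle cells were past it against basal cells for 3 of 7 genes, all higher and all ligands, where 8.25% of 11361 measured genes were higher and 2.04% lower. Shh/Dkk4 follicle cells were past it for the same 3 ligands, higher, and for *Tgfbi*, lower, where 4.43% of all measured genes were higher and 3.32% lower. Suprabasal cells were below basal cells for 3 genes, *Tgfb1*, *Tgfb3* and *Tgfbr2*, and above for none, where 9.09% of all genes were lower and 5.23% higher. Between the follicle gates, *Tgfb2*, *Tgfb3* and *Tgfbi* were higher in Sox9 follicle cells and none was lower, against 6.3% and 2.18% of all genes. Of the suprabasal calls, *Tgfb3* rests on 5 and 3 UMIs, and its control ratio turned from 0.431 (0.135 to 1.07) to 1.06 with stricter gates. Of the Sox9 follicle to basal calls, *Tgfb1* lay near the cutoff, at 2.02 (1.75 to 2.32) in the control and 2.33 (1.96 to 2.77) in the cKO library. With other settings its control ratio fell as low as 1.61, short of 2-fold.

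In the basal and Sox9 follicle gates, which held the most cells, the ligands differed less between cKO and control than between the gates. In Sox9 follicle cells none of the 7 genes was past 1.5-fold, where 5.94% of 11144 measured genes were higher and 4.9% lower by over 1.5-fold. The ratio of cKO to control there was 0.957 (0.892 to 1.03) for *Tgfb2*, 0.89 (0.753 to 1.05) for *Tgfb1*, 0.752 (0.664 to 0.852) for *Tgfb3* and 0.708 (0.539 to 0.927) for *Tgfbi*, the last 2 lower by more than counting error. For *Tgfb2*, the interval leaves room for a fall to 0.892 and for a rise to 1.03 of the control level. In basal cells 1 gene, *Tgfb3*, was past 1.5-fold at the settings used, at 1.59 (1.07 to 2.35), where 7.82% of 11860 genes were higher and 4.61% lower. Basal *Tgfb1* was lower, at 0.771 (0.665 to 0.891), and *Tgfbr2* higher, at 1.26 (1.03 to 1.53), both beyond counting error and short of 1.5-fold. The basal *Tgfb3* call was lost with equal weight for each cell (a ratio of 1.49), at 1000 genes per cell (1.40), with stricter gates (1.47) and without cycling cells (1.47). In both libraries the basal level of *Tgfb3* lay below that of barcodes without a cell, 7.39 and 6.17 CPM. Basal *Tgfb2*, at 1.11 (0.795 to 1.54), was past 1.5-fold with looser gates (1.84) and with a basal threshold lowered in the cKO library (1.74, chosen after the data had been seen), and *Tgfbr2* with at least 2500 genes per cell (1.56).

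The thinner gates held more genes past 1.5-fold, on few UMIs. Suprabasal cells had 1 of 6 measured genes higher and 2 lower, where 12.1% of 9831 genes were higher and 5.66% lower. *Smad3* was 0.29 (0.109 to 0.665) of control there, from 34 and 7 UMIs, and *Tgfb1* was 0.509 (0.248 to 0.983), from 36 and 13. *Tgfb2* was 2.64 (1.05 to 7.20), from 8 and 15 UMIs, and turned to 0.769 with looser gates. Shh/Dkk4 follicle cells had *Tgfbr2* higher, at 3.93 (1.31 to 15.9) from 4 and 19 UMIs, and *Smad3* lower, at 0.591 (0.316 to 1.09), where 9.79% of 9242 genes were higher and 7.09% lower. Over the alternative settings *Smad3* stayed between 0.233 and 0.396 in suprabasal cells, and *Tgfbr2* between 2.17 and 4.81 in Shh/Dkk4 follicle cells where it could be measured. *Tgfbr1* lay between 0.929 and 1.01 of control in all 4 gates. The median log2 ratio of the measured members was 0.08 in basal, 0.21 in suprabasal, -0.07 in Shh/Dkk4 and -0.06 in Sox9 follicle cells, against 0.02, 0.03, -0.0035 and -0.03 over all measured genes.

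**Figure D3:**
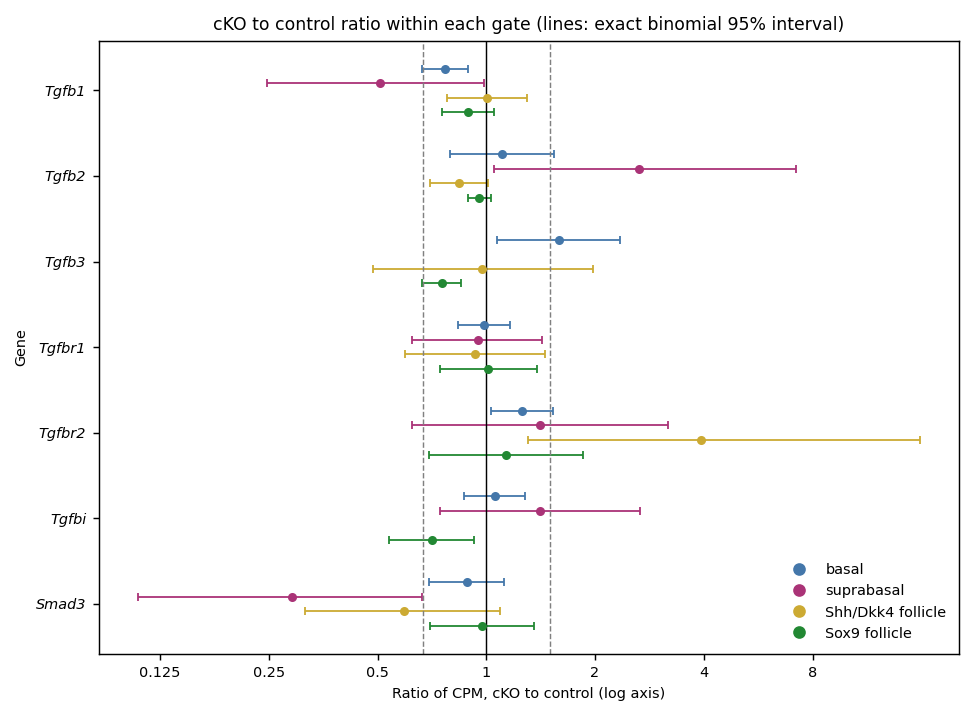
Ratio of cKO to control CPM for each gene on a log axis, 1 point per gate by colour, with exact conditional binomial 95% intervals as lines, the solid line at 1 and dashed lines at 1.5-fold in either direction. The Sox9 follicle points all lie inside the dashed lines, and the points outside them are *Tgfb3* in basal cells, *Tgfb1*, *Tgfb2* and *Smad3* in suprabasal cells, and *Tgfbr2* and *Smad3* in Shh/Dkk4 follicle cells. *Tgfb3* in suprabasal and *Tgfbi* in Shh/Dkk4 follicle cells, with under 20 UMIs over both libraries, are not drawn.

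Summed over all kept cells, without gates, *Tgfb2* was 49.1 CPM (47.1 to 51.2) in the control and 61.9 CPM (59.3 to 64.6) in the cKO library, a ratio of 1.26 (1.19 to 1.34), while within the gates the ratio was 1.11 (0.795 to 1.54) in basal (and 1.84 there with looser gates), 2.64 (1.05 to 7.20) in suprabasal, 0.842 (0.7 to 1.01) in Shh/Dkk4 follicle and 0.957 (0.892 to 1.03) in Sox9 follicle cells. The follicle gates held 20.7% of the kept control cells and 27.5% of the kept cKO cells, shares that the integrin sort, the gate thresholds and 1 library each can set. The same sums for *Tgfb1*, *Tgfb3* and *Tgfbr2* gave 0.923 (0.847 to 1.01), 1.06 (0.952 to 1.18) and 1.16 (0.992 to 1.36). For m6A, which METTL3 writes within a motif that often reads GGAC, the longest protein-coding transcript in GENCODE vM21 held 7.82 GGAC per kilobase for *Tgfb1*, 6.63 for *Tgfbi*, 5.03 for *Tgfb3*, 3.71 for *Tgfbr2*, 2.36 for *Smad3*, 2.26 for *Tgfbr1* and 2.15 for *Tgfb2*, searched on the sense strand. The median over 11323 genes measured in basal cells was 4.09, with quartiles of 2.98 and 5.397. The letters say nothing of which sites were methylated in these cells.

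Shares of cells with a UMI were compared after each cell had been thinned to 5000 UMIs, which left out 15 control and 26 cKO Sox9 follicle cells and at most 13 in any other gate. *Tgfb2* was found in 51.2% (47.4 to 54.98) of control and 45% (41.2 to 48.8) of cKO Sox9 follicle cells, and in 33.03% (26.9 to 39.7) and 27.2% (22.01 to 32.9) of Shh/Dkk4 follicle cells. Its share was 1.15% (0.773 to 1.65) and 1.89% (1.27 to 2.71) in basal and 0.482% (0.0584 to 1.73) and 1.95% (0.718 to 4.19) in suprabasal cells, and these low shares were taken as background, with no expression read from them. The unthinned shares in the Sox9 follicle gate were 60.4% and 54.96%. *Tgfb1* was found in 17.98% (15.2 to 21.1) and 14.8% (12.3 to 17.8) of Sox9 follicle cells against 11.4% (10.2 to 12.8) and 8.49% (7.14 to 10.0) of basal cells, and *Tgfb3* in 32.6% (29.1 to 36.3) and 27.2% (23.9 to 30.7) against 1.15% (0.773 to 1.65) and 1.44% (0.903 to 2.17). *Tgfbr2* was found in 4.33% (3.57 to 5.20) of control and 6.01% (4.87 to 7.32) of cKO basal cells and in 2.48% (1.45 to 3.95) and 2.94% (1.81 to 4.51) of Sox9 follicle cells. In unthinned cells at least 1 ligand was found in 79.5% of control and 76.5% of cKO Sox9 follicle cells, 60.8% and 59.7% of Shh/Dkk4 follicle, 21.8% and 20.2% of basal and 10.5% and 8.12% of suprabasal cells. *Tgfb2* and *Tgfb3* were found together in 223 control and 175 cKO Sox9 follicle cells, whereas both receptors were found in the same cell in only 2 and 4 of them. At this depth a receptor missing from a cell is not shown to be absent.

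**Figure D4:**
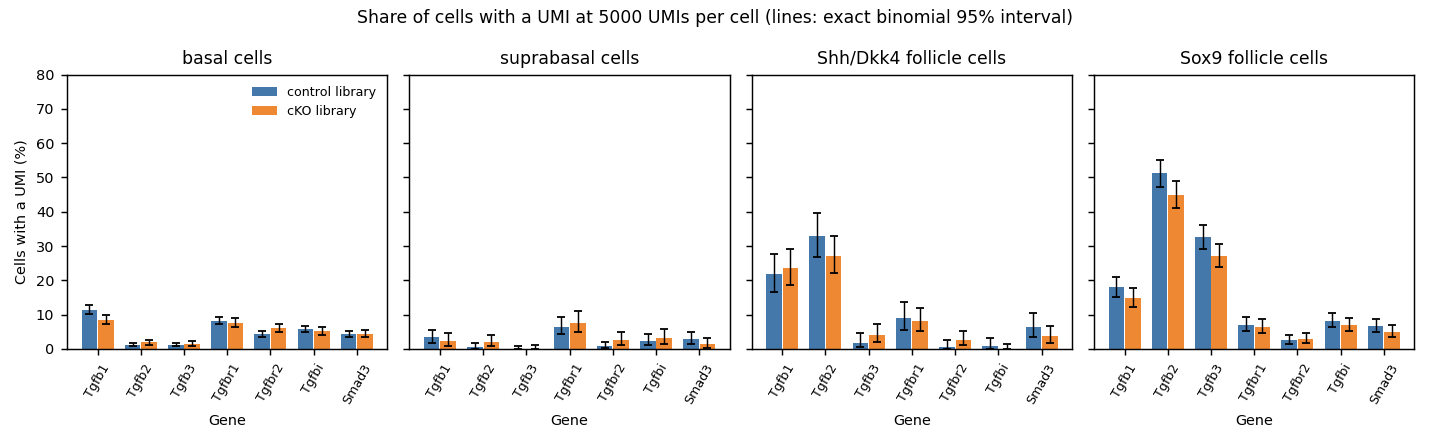
Share of cells with at least 1 UMI of each gene after thinning to 5000 UMIs per cell, by gate, for the control (blue) and cKO (orange) library, with exact binomial 95% intervals as lines. The ligands stand out in the 2 follicle gates, *Tgfb2* at 51.2% and 45% of Sox9 follicle cells, and no receptor passes 10% in any gate.

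Several genes that hold or release latent ligand were higher in Sox9 follicle than in basal cells. Of 16 such genes 13 were measured, and 4 were past 2-fold above basal cells in both libraries and 0 below, where 8.25% and 2.04% of all genes were. *Itgb8*, the β8 integrin subunit that activates latent TGF-β, was 45.9 times the basal level in the control and 18.8 times in the cKO library, from a basal level of 0.696 and 1.55 CPM. *Ltbp1*, which tethers the latent complex to matrix, was 18.7 times the basal level in the control and 16.6 times in the cKO library. *Furin*, the protease that cleaves the propeptide, was 2.86 and 2.17 times, and *Bmp1*, a matrix protease, 2.09 and 2.03 times in the same order. In Shh/Dkk4 follicle cells *Ltbp1* and *Itgb8* were higher and thrombospondin (*Thbs1*) lower. Suprabasal cells had 4 of 12 genes below basal, beside 9.09% of all genes, *Ltbp4*, *Itgb1*, *Mmp14* and *Fbn1*, the last from 2 and 2 UMIs. Between cKO and control basal cells 2 of 13 were past 1.5-fold, both higher, where 7.82% of all genes were higher and 4.61% lower: *Itgb6*, at 1.77 (1.002 to 3.15), and *Itgb8*, at 2.23 (1.14 to 4.44). The median log2 ratio of the list was 0.05, and its other extremes were *Ltbp3* at 1.41 (1.10 to 1.80), *Ltbp4* at 0.87 (0.786 to 0.963) and *Itgb5* at 0.875 (0.79 to 0.968).

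Co-receptors showed no member past 2-fold between Sox9 follicle and basal cells among 4 measured, where 8.25% of all genes were higher and 2.04% lower, so that a count of 0 in so short a list is no result about it. *Cd109*, a co-receptor known to restrain TGF-β signalling in keratinocytes, was 2.67 and 2.51 times the basal level in control and cKO suprabasal cells and 0.224 and 0.106 times in Shh/Dkk4 follicle cells. In cKO basal cells *Cd109* was 0.7 (0.614 to 0.798) of control, 31.6 against 22.1 CPM, and it was 0.331 (0.105 to 0.903) in Shh/Dkk4 follicle cells and 0.659 (0.554 to 0.781) in suprabasal cells. *Tgfbr3* (betaglycan, which presents TGF-β2), *Bambi* and *Acvrl1* had basal ratios of 1.005 (0.807 to 1.25), 1.03 (0.805 to 1.32) and 1.02 (0.616 to 1.65). In the related activin branch *Inhbb*, an activin subunit, in Sox9 follicle cells was 74.9 times the basal level in the control and 56.9 times in the cKO library, from 5 and 5 basal UMIs. Its antagonist follistatin (*Fst*) was 2.37 and 2.12 times the basal level there and 0.312 and 0.166 times in Shh/Dkk4 follicle cells. None of 6 measured activin genes was past 1.5-fold in cKO basal cells, beside 7.82% and 4.61% of all genes, and there *Fst* was 1.32 (1.27 to 1.38) and *Fstl3* 0.764 (0.589 to 0.985). The basal ratios of *Acvr2b* and *Inha* were 1.10 (0.922 to 1.31) and 0.89 (0.702 to 1.12).

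Among the other Smads, the inhibitory pair *Smad6* and *Smad7* was higher in Sox9 follicle cells, 2 of 6 measured, where 8.25% of all genes were higher and 2.04% lower. *Smad7*, which blocks the activated type I receptor, was 2.08 times the basal level in the control and 2.18 times in the cKO library, and 3.36 and 3.06 times in Shh/Dkk4 follicle cells. It was also higher in cKO than control cells: 4.63 CPM (3.81 to 5.56) against 7.28 CPM (5.97 to 8.79) in basal cells, a ratio of 1.57 (1.20 to 2.07), and 9.61 CPM (7.37 to 12.3) against 15.9 CPM (12.9 to 19.3) in Sox9 follicle cells, a ratio of 1.65 (1.19 to 2.30). *Smad6* went the other way in basal cells, at 0.637 (0.298 to 1.28) of control, and these were the list's calls there, 1 in each direction, beside 7.82% higher and 4.61% lower of all genes. *Smad2* and *Smad5* were at 0.934 (0.807 to 1.08) and 0.983 (0.884 to 1.09) of control in basal cells and *Smad1*, of the BMP branch, at 1.15 (1.03 to 1.28). Of 16 measured regulators of the signal, *Skil* and *Tgif1*, both nuclear co-repressors of Smads, were past 2-fold in Sox9 follicle cells, *Skil* at 4.39 and 3.39 times and *Tgif1* at 2.64 and 2.14 times the basal level in control and cKO, a share of the list to be read beside the same 8.25%. In cKO basal cells *Tgif1* was 1.56 (1.43 to 1.70) and *Tgfbrap1* 1.51 (1.13 to 2.002) of control. These were the 2 of 16 past 1.5-fold, beside the same 7.82% higher and 4.61% lower of all genes, and so small a count is no result about the list. At the low end were *Map3k7*, the TAK1 kinase, at 0.754 (0.636 to 0.892) and *Dcn* at 0.802 (0.781 to 0.823). *Dcn*, the proteoglycan decorin, which binds TGF-β, was 3.59 and 3.52 times the basal level in Shh/Dkk4 follicle cells, at 2586 and 2036 CPM.

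Genes that TGF-β raises in many cell types were higher in Sox9 follicle than in basal cells for 9 of 20 measured and lower for 1, against 8.25% and 2.04% of all measured genes. The higher ones included *Bhlhe40*, a transcriptional repressor, at 11.03 and 6.72 times the basal level in control and cKO, and *Fn1*, fibronectin, at 5.20 and 2.97 times. *Cdkn1a*, the p21 cell cycle inhibitor, was 3.89 and 3.50 times, and *Cdkn1c*, the p57 inhibitor, was the one lower, at 0.402 and 0.454 times. Many of these genes answer to other signals too, and which signal moved them was not tested. Suprabasal cells had 10 of 21 lower, among them the basement membrane genes *Col7a1* and *Col4a1*, and 3 higher, where 9.09% of all genes were lower and 5.23% higher. The 3 higher were *Cdkn2b*, at 113 and 22.7 times the basal level in control and cKO, *Cdkn1a* at 14.6 and 9.46 and *Bhlhe40* at 5.12 and 2.77 times. The basal level of *Cdkn2b* rests on 3 and 4 UMIs. *Cdkn1a* was thus higher in suprabasal than in Sox9 follicle cells in both libraries. Shh/Dkk4 follicle cells had *Fn1* at 17.3 and 10.9 times, *Ctgf* at 4.13 and 5.09 times and *Smad7* higher, and *Thbs1* and *Timp3* lower. In cKO basal cells 5 of 20 were past 1.5-fold higher and 2 lower, beside 7.82% and 4.61% of all genes. *Bhlhe40* was 2.51 (2.003 to 3.16), *Cdkn1c* 0.489 (0.464 to 0.515), from 253 to 124 CPM, and *Ctgf* 0.527 (0.322 to 0.837) of control. The list's median log2 ratio there was 0.20, against 0.02 over all measured genes. The other gates did not share this rise. The list's median was -0.09 in suprabasal, -0.21 in Shh/Dkk4 follicle and 0.05 in Sox9 follicle cells, against 0.03, -0.0035 and -0.03 over all measured genes. Of 5 genes that TGF-β lowers, *Myc*, a driver of growth, was 0.288 and 0.264 times the basal level in Sox9 follicle and 0.336 and 0.382 times in Shh/Dkk4 follicle cells, and 1.56 (1.37 to 1.79) of control in cKO basal cells. *Cdh1*, E-cadherin, had a basal ratio of 1.35 (1.25 to 1.46), *Id2* of 0.965 (0.832 to 1.12) and *Id3* of 0.869 (0.836 to 0.902).

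**Figure D5:**
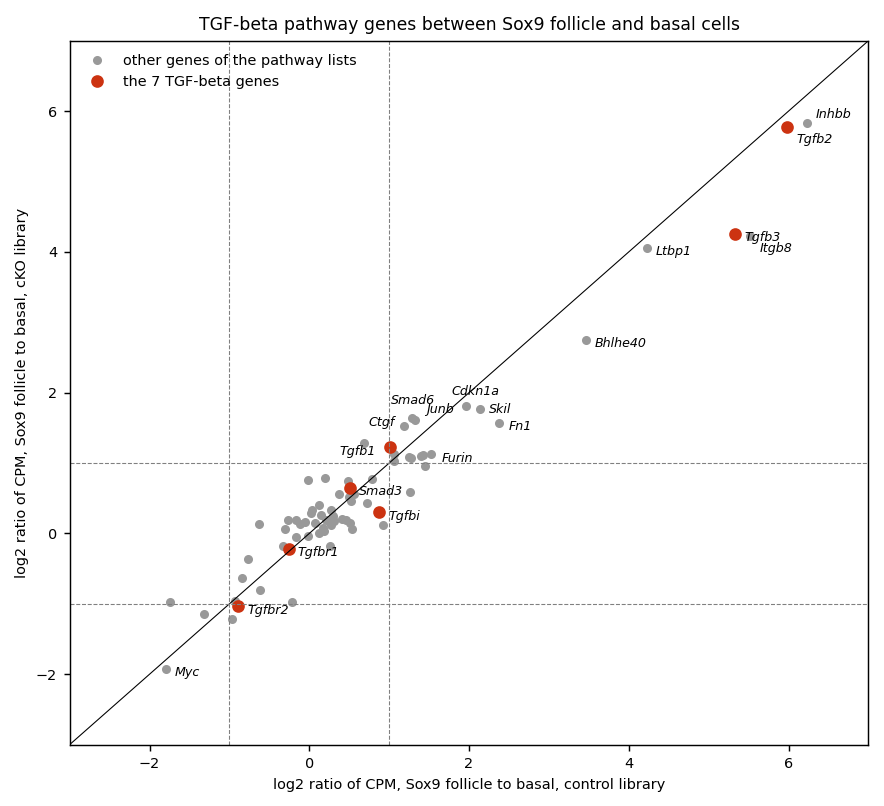
log2 ratio of CPM between Sox9 follicle and basal cells in the control (horizontal axis) and cKO (vertical axis) library, 1 point per measured gene of the pathway lists (grey) and per TGF-β gene described (red), with the diagonal for equal ratios and dashed lines at 2-fold. *Tgfb2*, *Tgfb3*, *Inhbb*, *Itgb8* and *Ltbp1* lie at the upper right, *Tgfbr1* and *Tgfbr2* lie below 0 on both axes, and *Myc* lies at the lower left.

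The genes most like each member over the 8 points of 4 gates in 2 libraries were found by Pearson's r of log2(CPM + 1) among 10184 genes. For *Tgfb2* these were *Epcam* (0.996), *Crip2* (0.994) and *Csgalnact1* (0.992), *Epcam* being an epithelial adhesion molecule, with levels from 147 CPM in control suprabasal to 466 CPM in control Sox9 follicle cells. For *Tgfb3* they were *Atp6v1b1* (0.995), *Wac* (0.994) and *Bdnf* (0.991), *Bdnf* being a neurotrophin, at 0.573 CPM in control basal and 70.3 CPM in control Sox9 follicle cells. For *Tgfb1* they were *Hnrnpc* (0.993), *Csad* (0.993) and *Adgrl3* (0.992). The receptors were matched by *Disp1* (0.99), *Avl9* (0.989) and *Prpf4b* (0.985) for *Tgfbr1* and *Col5a1* (0.979), *Ubp1* (0.978) and *Mob3b* (0.942) for *Tgfbr2*, *Col5a1* being a fibrillar collagen. *Smad3* was closest to *Rpl6l* (0.977), *Tpmt* (0.975) and *Hrsp12* (0.974), and *Tgfbi* to *Dpy19l4* (0.986), *Rfx2* (0.972) and *Tbk1* (0.969). The points share 2 libraries and the r values are a description.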

How the data were processed

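The deposited files were 10x matrices of raw UMI counts per gene and barcode for 1 control and 1 cKO library, which the authors made from Chromium 3′ v2 libraries with Cell Ranger (version 2.0 and genome build mm10 in the submitters' processing notes, while the methods name a later version). The gene annotation release was not given in the sources used here. Barcodes with at least 1800 genes were kept, out of 59664869 control and 49755010 cKO UMIs in all. Gates were set on summed marker UMIs per 10000 UMIs of a cell, at 80 for basal (with under 15 of suprabasal markers and no follicle call), 30 for suprabasal, 2 for Shh/Dkk4 follicle and 3 for Sox9 follicle cells, the last 2 with at least 2 UMIs. A cell with 4 or more per 10000 of another cell type's markers was left out. The thresholds were set on the markers' distributions and not on the 7 genes. The members and gene lists were chosen with earlier results of these data known.

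For each gate the UMIs of its cells were added up and scaled to 1e6 (CPM). The 3′ tags were not divided by length, so each gene was compared with itself. A gene counted as measured with at least 20 UMIs over both libraries. It was called at 1.5-fold between libraries, or at 2-fold in the same direction in both libraries between gates, and a sum under 3 counts was set to that floor. Of the genes that TGF-β raises, 2 are not reported here and are in no count or plot of that list. All 7 genes were named, and for each list the 2 highest and 2 lowest basal ratios of cKO to control with at least 50 UMIs. Of the list genes past 2-fold between gates only some were named, so those named are a selection. Genes with a like pattern had at least 200 UMIs, and a gene named outside this rule was chosen after its values were seen. Free RNA was read from barcodes of 10 to 100 UMIs (69571 control and 65846 cKO). No doublet caller was run, and cells passing both suprabasal and follicle gates were left out. The tested alternatives were 3 other scalings (one the TMM factors of edgeR 4.0.16 in R 4.3.3), equal weight per cell, other minimums of genes and UMIs, thinning, looser and stricter gates, cells with most UMIs, high mitochondrial share or cycling genes left out, free RNA subtracted, no gates, and a matched basal threshold and the split of Sox9 follicle cells that were added after the data had been seen. Software was pandas 2.3.3, numpy 2.4.6, scipy 1.17.1 and matplotlib 3.10.9 under Python 3.11.15, and the code was tested on simulated data. Gene positions came from GENCODE vM21 and promoters from RefSeq, both on GRCm38, the build named mm10. No protein sequences were used here.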

Additional observations from a re-analysis of the deposited data

Results flagged for a closer look

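*Tgfb3* differed between cKO and control in opposite directions in 2 gates. It was higher in cKO basal cells, at a ratio of 1.59 (1.07 to 2.35), and lower in cKO Sox9 follicle cells, at 0.752 (0.664 to 0.852), and the counting intervals lay on opposite sides of 1. The basal value rests on 56 control and 54 cKO UMIs and the Sox9 follicle value on 597 and 443. Free RNA held 7.39 and 6.17 CPM of *Tgfb3*, more than the 2.29 and 3.64 CPM of basal cells, so the basal level may be background. With 5% of each sum taken as free RNA and subtracted the basal ratio was 1.73. The difference between the gates was not tested, since each condition has 1 library.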

How the results depend on the processing

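The counts of genes past 2-fold between gates stayed within 1.5 times under every alternative run for them. That margin can hide a lost call, and several single ratios fell short of 2-fold with other settings. For control *Tgfb1*, the ratio to basal cells fell to 1.61 in Sox9 follicle and 1.59 in Shh/Dkk4 follicle cells. For cKO *Tgfb3*, Shh/Dkk4 follicle cells fell to 1.69 times the basal level. The Sox9 to Shh/Dkk4 follicle ratio of *Tgfb2* fell to 1.56 for control and 1.77 for cKO cells. Against basal cells, Sox9 follicle *Tgfb2* never fell below 25.2 times. The counts past 1.5-fold between cKO and control moved with the cells taken. In basal cells, where the count was 1, it was 0 with equal weight for each cell, with at least 1000 genes per cell, with stricter gates and without cycling cells, and 2 with at least 2500 genes per cell (*Tgfb3* 1.75 and *Tgfbr2* 1.56), with looser gates (*Tgfb3* 1.83 and *Tgfb2* 1.84) and with a basal threshold lowered in the cKO library to 57.3 UMIs per 10000, an alternative chosen after seeing the data (*Tgfb3* 1.78 and *Tgfb2* 1.74). In suprabasal cells the count was 3, and it was 0 with at least 50 UMIs over both libraries and without cycling cells and 1 with looser gates. In Shh/Dkk4 follicle cells the count was 2, and it was 0 with at least 50 UMIs, with at least 2500 genes per cell and without cycling cells, and 1 with stricter gates and without the 4% of cells with most UMIs. The minimum of 50 UMIs left fewer genes measured. Without cycling cells the called genes of both gates had under 20 UMIs and were no longer measured (suprabasal *Smad3* at 5.34 and 1.46 CPM from 12 and 2 UMIs). The same held for *Tgfbr2* in Shh/Dkk4 follicle cells with at least 2500 genes per cell, with stricter gates and without the cells with most UMIs, and *Smad3* there was 0.759 with at least 2500 genes. The cause of the other changes was not tested. In Sox9 follicle cells the count of 0 became 1 with at least 2500 genes per cell (*Tgfbi* 0.656). Among ratios past their cutoff at the settings used, 3 changed direction. *Tgfb2* between cKO and control in suprabasal cells turned to 0.769 with looser gates. The control suprabasal to basal ratios of *Tgfb2* and *Tgfb3* turned to 1.38 and 1.06 with stricter gates. Ratios short of the cutoff were left out of this count, and several crossed 1. *Tgfbr2* between cKO and control in Sox9 follicle cells, for example, ran from 0.844 to 1.47. Each single ratio was also counted once per alternative setting. Between cKO and control, 329 such values lay within the counting interval of the ratio at the settings used, and 7 lay outside it. Between gates the numbers were 396 and 47, the latter including ratios set on the floor, which had no interval. No paired analysis was possible because each condition has 1 library. Low UMI numbers in the suprabasal and Shh/Dkk4 follicle gates limit what can be seen of *Tgfb3*, *Tgfbr2*, *Tgfbi* and *Smad3* there.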
